A study of Homo sapiens with 16 samples.

Results

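In hypoxic HCT116 colorectal cancer cells, HIF-2α was found at 350 sites, defined as merged peaks that overlapped by at least 1 bp in both HIF-2α ChIP-seq libraries of the line. They were split by whether any of the 6 HIF-2α libraries of A549 lung, PC3 prostate and T47D breast cancer cells had a peak overlapping by at least 1 bp. The 116 sites with no such peak are called private and the other 234 are called shared. The HIF-2α sites of the 4 lines, defined in the same way and merged, numbered 1133, and the peak lists of all 16 libraries of the series held 23398 peaks. The comparison asked which genes, distances to start sites, score ranks and sequences went with HIF-2α sites that were found in HCT116 and not in the other lines.

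Each of the 4 lines was assayed with antibodies against HIF-1α and against HIF-2α after 16 h in 0.5% oxygen, with 2 libraries per line and antibody. HIF-2α libraries were labelled replicates 2 and 3 for HCT116 and A549 and replicates 1 and 2 for PC3 and T47D. No normoxic library was used here, so that all values describe hypoxic cells of 4 established lines, each of which stands alone for its tissue. The labels do not say that the libraries of a line came from separate cultures, so p-values measure the spread between libraries, which may be technical. Both libraries of a line share that line, so that a property of HCT116 and a property of its pair of libraries cannot be told apart. Peak lists hold no expression values, and the identity of the lines was taken from the labels alone.

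HIF-2α, encoded by EPAS1, is an oxygen-labile subunit of the hypoxia-inducible factors. In normoxia it is hydroxylated by prolyl hydroxylases and degraded through the VHL ubiquitin ligase, and in hypoxia it pairs with HIF-1β and binds the core RCGTG, in which R is A or G. HIF-1α binds the same core, is known for control of glycolytic genes close to promoters, and shares many loci with HIF-2α, which is often found at enhancers away from promoters.

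The central 200 bp of 4 well-ranked private sites outside exons are shown here, with that of 1 well-ranked shared site, since presence or absence of the core is what the later comparisons count. They are read 5′ to 3′ from the + strand of GRCh37, and capitals mark ACGTG or GCGTG on either strand, so that a core on the opposite strand reads CACGT or CACGC.
SYTL3 private, chr6:159151610-159151809: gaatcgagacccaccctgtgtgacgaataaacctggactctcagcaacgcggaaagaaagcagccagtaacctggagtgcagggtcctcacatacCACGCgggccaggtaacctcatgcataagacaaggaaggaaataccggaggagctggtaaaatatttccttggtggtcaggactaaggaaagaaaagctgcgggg
SLC2A1 private, chr1:43473784-43473983: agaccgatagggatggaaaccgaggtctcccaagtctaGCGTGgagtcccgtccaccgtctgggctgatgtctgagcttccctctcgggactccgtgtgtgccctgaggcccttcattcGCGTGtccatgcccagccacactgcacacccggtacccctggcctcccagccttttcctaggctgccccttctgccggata
DNAJB12 private, chr10:74082103-74082302: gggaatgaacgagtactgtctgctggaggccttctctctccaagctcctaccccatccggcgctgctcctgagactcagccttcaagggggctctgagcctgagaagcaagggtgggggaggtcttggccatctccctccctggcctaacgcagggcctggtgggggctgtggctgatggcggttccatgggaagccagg
CCND1 private, chr11:69451374-69451573: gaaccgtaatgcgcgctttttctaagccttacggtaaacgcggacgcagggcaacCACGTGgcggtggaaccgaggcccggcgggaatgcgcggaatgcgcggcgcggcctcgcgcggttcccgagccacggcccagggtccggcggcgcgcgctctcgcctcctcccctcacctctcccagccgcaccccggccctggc
SLC45A1 shared, chr1:8272171-8272370: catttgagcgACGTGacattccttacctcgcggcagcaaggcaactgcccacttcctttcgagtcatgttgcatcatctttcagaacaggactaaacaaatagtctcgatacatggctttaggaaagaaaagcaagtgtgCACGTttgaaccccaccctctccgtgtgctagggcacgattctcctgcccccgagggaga
The SYTL3 centre held 1 core and the SLC2A1 centre 2, each GCGTG. The CCND1 centre held the palindrome CACGTG, which counts as a core on each strand. The DNAJB12 centre held no core, and the shared SLC45A1 centre held 2. The examples were picked after their cores were known and do not stand for the shares of each class, as the shared site near UBR4, which ranked above SLC45A1, held 1 core and the private site near ENSG00000289761, which ranked above CCND1, held none. Such a match describes letters in a window and was not tested for binding.

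Private sites made up 33.1% of the 350 HCT116 sites (Wilson 95% interval 28.4 to 38.2). In the other lines the private share by the same rule was 51.2% of 772 sites in A549, 26.1% of 153 in PC3 and 51.1% of 180 in T47D, or 47.7% of 1105 when pooled. The HCT116 share therefore lay between that of PC3 and those of A549 and T47D. Intervals here and below cover counting error only, and neighbouring sites of 1 line are not replicates.

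The 234 shared sites were found in A549 and PC3 far more often than in T47D. Either A549 library held 192 of the 350 sites, either PC3 library 179 and either T47D library 78. A549 alone of the 3 other lines held 41 sites, PC3 alone 33 and T47D alone 6. The list lengths differ with these counts, since T47D lists held 423 and 424 peaks and the A549 lists 1382 and 1056, and PC3 replicate 1 with 275 peaks held 70 of the sites where PC3 replicate 2 with 1290 peaks held 178. The lists gave no read totals and sequencing depth was unknown. A private site is accordingly a site without a listed peak elsewhere, which may still carry signal below the threshold. How far list length sets the private share was not tested beyond the alternatives given in the closing part.

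The plot of sites by number of other libraries shows 116 sites in none, 47 in 1, 51 in 2, 45 in 3, 44 in 4, 21 in 5 and 26 in all 6. Membership seldom hung on the edge of an overlap. The smallest overlap of a shared site with a peak of another line was 544 bp and the median was 943 bp. The nearest HIF-2α peak of another line lay 475 bp from the closest private site and a median of 195618 bp away, and 1 private site had a gap under 1000 bp.

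**Figure D1:**
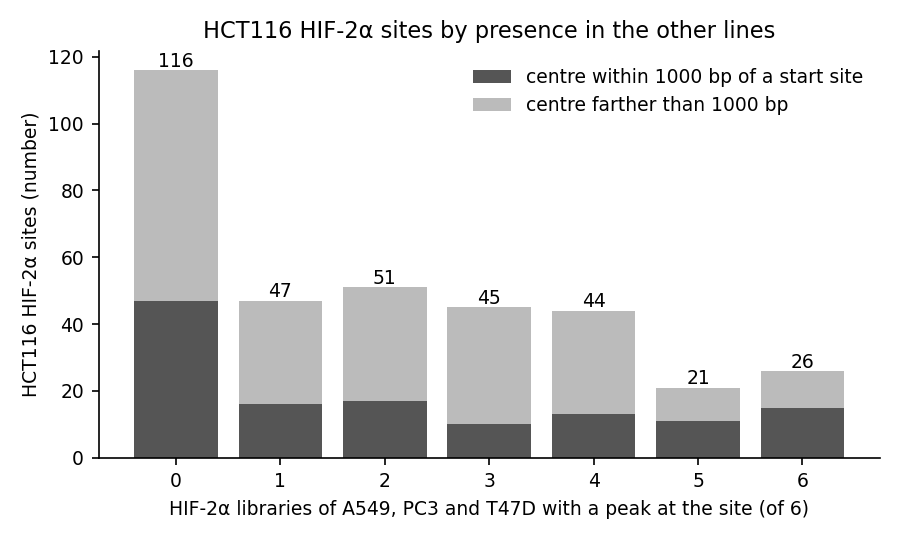
HCT116 HIF-2α sites (number, y axis) by how many of the 6 HIF-2α libraries of A549, PC3 and T47D had a peak there (x axis), split by whether the site centre lay within 1000 bp of a protein-coding start site. Of the 116 sites in no other library 47 were near a start site, and of the 26 sites in all 6 libraries 15 were.

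Sites in both HCT116 libraries were much less often private than peaks of a single HCT116 library. Of the 909 replicate 2 peaks that were absent from replicate 3, 777 or 85.5% (Wilson 83.0 to 87.6) had no HIF-2α peak in another line. Of the 551 replicate 3 peaks absent from replicate 2 the figure was 511 or 92.7% (90.3 to 94.6). Over all peaks, 70.9% of 1259 in replicate 2 and 69.6% of 901 in replicate 3 were private, against 55.9% to 73.9% in the 6 other libraries. T47D replicate 1 was above both HCT116 libraries and the other 5 were below. The HCT116 mean of 70.3% exceeded the mean of the others, 63.5%, by 6.80 percentage points (two-sided exact permutation test over all 28 choices of 2 of 8 libraries, p = 0.25, Benjamini-Hochberg adjusted over 5 tests 0.417). This direction did not hold when lists were cut to equal length or to higher scores, with differences of -5.64 and -3.90 points, and without PC3 it was 0.9985 points.

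Private sites had lower scores than shared sites. The score is the peak caller's own, and each peak was given its percentile rank within its library, where 100 is the highest, with the mean over the 2 libraries as the rank of the site. The median rank was 63.8 (quartiles 50.7 and 78.4) for private and 84.9 (68.9 and 93.2) for shared sites, and it rose with the number of other lines from 77.8 for 1 line to 82.6 for 2 and 93.4 for 3. Of the 88 best-ranked sites 9 were private (10.2%, Wilson 5.47 to 18.3), of the next 88 sites 20, of the next 87 sites 37, and of the last 87 sites 50 (57.5%, 47 to 67.3). Sites of low score were private more often, and yet private sites reached order 8 of 350.

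**Figure D2:**
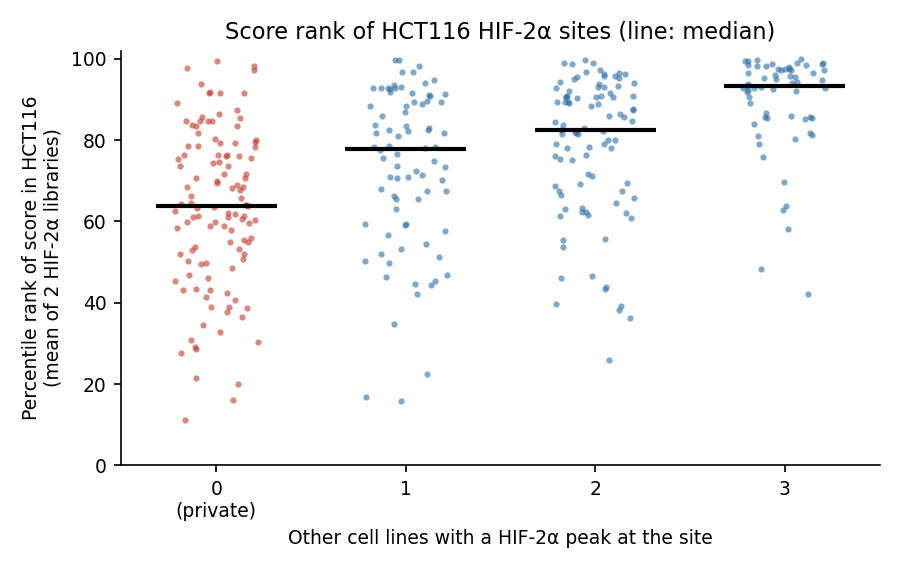
Percentile rank of score of each HCT116 HIF-2α site (y axis, mean of 2 libraries, 100 is highest) by the number of other lines with a HIF-2α peak there (x axis). Points are sites and black lines medians, which are 63.8, 77.8, 82.6 and 93.4 from 0 to 3 lines.

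Private peaks ranked below shared peaks in each of the 8 HIF-2α libraries. The mean rank of private peaks was 41.5 in HCT116 replicate 2 and 40.3 in replicate 3, and that of shared peaks 70.8 and 72.4, so that private minus shared was -29.3 and -32.2 points. In the 6 other libraries this difference lay between -31.0 in T47D replicate 1 and -17.5 in A549 replicate 2. The HCT116 mean of -30.7 differed from that of the others, -23.2, by -7.55 points, which did not pass the test (exact permutation p = 0.107, adjusted 0.268).

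HCT116 HIF-2α peaks lay nearer to protein-coding start sites than those of the other lines. The median distance from peak centre to the nearest start site was 8353 bp in replicate 2 and 10527 bp in replicate 3. In the replicates of the other lines, in label order, A549 had medians of 24301 and 18260 bp, PC3 of 25440 and 13528 bp and T47D of 28555 and 23836 bp, so that both HCT116 libraries were below all 6 others. On the log10 scale the medians averaged 3.97 in HCT116 and 4.34 in the other lines, a difference of -0.36 or 2.31-fold nearer. The two-sided exact permutation p was 0.0357, the smallest that 28 choices allow, and the adjusted value over 5 tests was 0.179, so the difference did not pass after correction. The log10 difference was -0.66 with lists cut to equal length and -0.61 with peaks of higher score. The exact permutation p was again 0.0357 in each, and neither passed after correction.

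The proximity held against all 3 other lines in private peaks, and against A549 and PC3 in shared peaks. Centres within 1000 bp of a start site made up 31.5% of private peaks in replicate 2 and 29.7% in replicate 3. Private peaks of the other lines were near a start site in 8.73% and 14.2% of cases in A549, 5.92% and 24.8% in PC3, and 7.05% and 8.65% in T47D. The HCT116 values were above all 6, with PC3 replicate 2 the closest. For shared peaks the HCT116 values of 36.6% and 35.0% were above those of A549, 23.2% and 28.4%, and of PC3, 24.2% and 25.05%. They were below those of T47D, 43.6% and 43.7%. No separate test was made of these shares. The difference between private and shared peaks in median log10 distance was 0.24 and 0.30 in HCT116, against -0.03 to 1.47 elsewhere, and the group means of 0.27 and 0.66 did not differ beyond the spread between libraries (difference -0.39, exact permutation p = 0.571, adjusted 0.714). That difference ranged from -1.04 with lists cut to equal length to -0.06 without T47D.

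**Figure D3:**
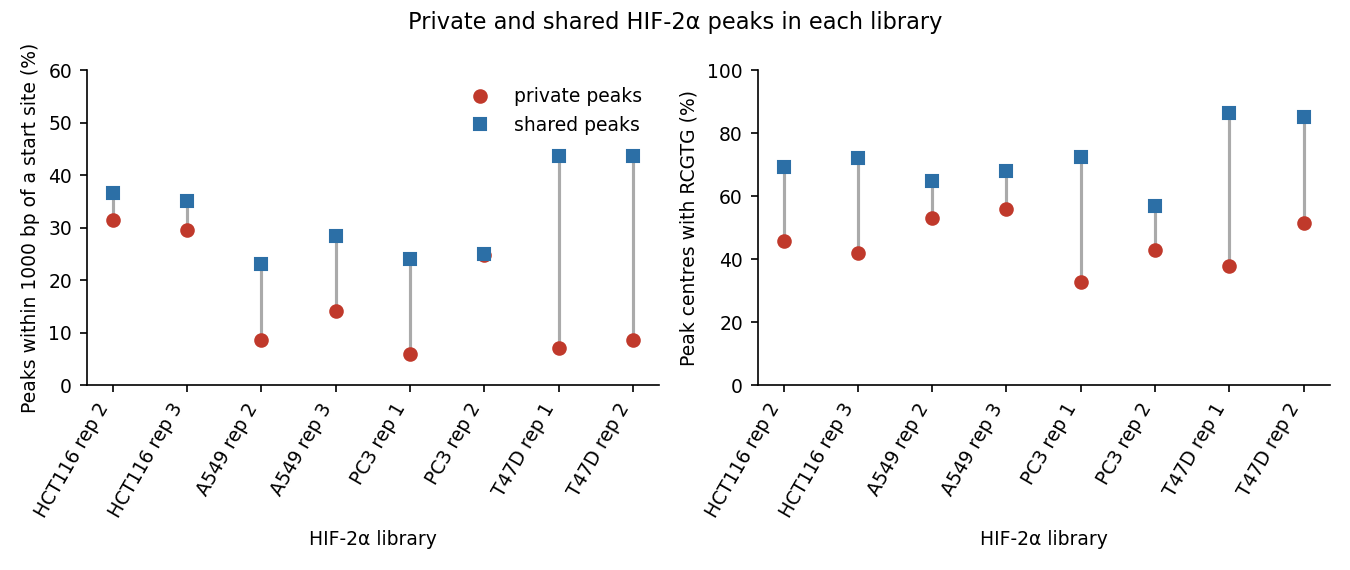
Percent of private (circles) and shared (squares) HIF-2α peaks with the centre within 1000 bp of a protein-coding start site (left, y axis) and with RCGTG in the central 200 bp (right, y axis), in each of 8 libraries (x axis, rep is replicate). Private peaks of HCT116 were near start sites in 31.5% and 29.7% of cases and had RCGTG in 45.9% and 42.0%.

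Among the 350 sites found in both replicates, near and far sites were divided much alike between the classes. Private sites had a median distance of 4324 bp (quartiles 252.5 and 51766) and shared sites of 5620 bp (245 and 37326). Of private sites 47 of 116 or 40.5% (Wilson 32.0 to 49.6) lay within 1000 bp of a start site, compared with 82 of 234 or 35.0% (29.2 to 41.4) of shared sites. Over 50000 bp from any start site lay 25.9% of private and 21.4% of shared sites. The sign of the distance difference depended on which peaks were taken, being -0.11 on the log10 scale for sites in both replicates and 0.28 for peaks of either replicate, with private peaks then the farther. It was also positive without PC3 replicate 2, at 0.20, and with the start sites of all annotated genes, at 0.31. Private sites of the other lines were near a start site in 10.4% of 395 cases in A549, 5% of 40 in PC3 and 5.43% of 92 in T47D, all with upper Wilson bounds of at most 16.5%.

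Shared sites differed by how widely they were shared. Those in all 3 other lines were within 1000 bp of a start site in 57.4% of 61 cases, with a median of 383 bp. Those in 2 other lines were near in 21.5% of 93 cases, with a median of 11918 bp, and those in 1 other line in 33.8% of 80 cases, with a median of 5814 bp. Private sites, at 40.5%, stood between the sites common to all lines and those in part of them.

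The HIF core was less frequent at private than at shared sites. RCGTG was present in the central 200 bp of 68 of 116 private sites or 58.6% (Wilson 49.5 to 67.2) and of 167 of 234 shared sites or 71.4% (65.3 to 76.8). Flanking windows of 200 bp were placed 5000 bp to either side of the centre of every HIF-2α peak of the 8 libraries, and 23% held it. Windows of 200 bp around the start sites of 20133 protein-coding genes, here called promoters, held it in 42.7%. ACGTG was present in 40.5% of private and 54.3% of shared sites, and GCGTG in 37.1% and 41.5%, and a window can hold both. The share rose with the number of other lines, from 57.5% for 1 line to 73.1% for 2 and 86.9% for 3.

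CpG content differed between the classes and moves with the core, which contains a CpG. The median number of CpG in the window was 13.5 for private and 10.5 for shared sites, and 4 for private sites of A549. Flanking windows matched for CpG held RCGTG in 46.4% of cases for private and 45.5% for shared sites. The excess was thus 12.2 points for private and 25.9 for shared sites. Windows with 20 or more CpG were pooled in this matching, which was therefore coarser for CpG-rich sites. The upper quartile of CpG was 23 for private and 22.75 for shared sites, and 6 for private sites of A549. Sites shared with 1 other line had an excess of 14.7 points, near that of private sites, and those shared with 3 had 35.7. For private sites of the other lines the excess was 28.4 points in A549, 17.3 in PC3 and 35.8 in T47D. The PC3 value rests on 40 sites with RCGTG at 52.5% (Wilson 37.5 to 67.1). Its order against private HCT116 sites is therefore within counting error. By library, RCGTG was present in 45.9% of private and 69.4% of shared peaks in replicate 2 and in 42.0% and 72.3% in replicate 3. The mean difference of -26.9 points in HCT116 was close to the -26.6 of the other libraries (difference -0.29, exact permutation p = 0.964, adjusted 0.964), and its sign turned in several alternatives, as with A549 replicate 2 left out, at 1.47.

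The difference in cores varied along the ranking in no steady order. When the 350 sites were split at their median rank, 64.3% of private and 70.7% of shared sites above it had RCGTG, a difference of -6.46 points, and below it 56.8% and 72.4% had it. In the 88 best-ranked sites the shares were 66.7% of 9 private and 77.2% of 79 shared sites, in the next 88 sites 65% and 63.2%, in the next 87 sites 56.8% and 78%, and in the last 87 sites 56% and 64.9%.

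Other sequence motifs were counted in the same windows on both strands. The AP-1 site, TGAGTCA or its complement TGACTCA, which is bound by FOS and JUN dimers, was present in 14 private sites or 12.1% (Wilson 7.33 to 19.2) and in 48 shared sites or 20.5% (15.8 to 26.1), against 3.37% of flanks and 2.62% of promoters. Among shared sites it followed no steady order, with 16.25% for 1 other line, 32.3% for 2 and 8.20% for 3. All 14 private sites with it lay beyond 1000 bp of a start site, where it was present in 20.3% of 69 private and 27.0% of 152 shared sites. The ETS motif CCGGAAG was present in 6.03% of private and 2.14% of shared sites, with 0.886% in flanks and 10.1% in promoters. GGGCGGG, read by SP and KLF factors, was present in 29.3% and 26.9%, with 32.9% in promoters. Motifs of factors of the intestinal lineage were rare. TTTATGG, read by CDX, was present at 1 private site and ATCAAAG, read by TCF and LEF, at 2. Their Wilson intervals, 0.152% to 4.72% and 0.474% to 6.07%, included the flank shares of 2.99% and 2.46%. They also included the promoter shares of 1.207% and 1.197%. The flanks were not matched for base content here, so these counts show no shortfall against them. No private site had the CRE motif TGACGTCA. Absence of a motif says only that these letters were not in the window.

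HIF-1α, for which independent libraries exist, was present at most private sites in the same cells. At least 1 of the 2 HCT116 HIF-1α libraries had a peak at 82 of 116 private sites or 70.7% (Wilson 61.9 to 78.2) and at 190 of 234 shared sites or 81.2% (75.7 to 85.7). A HIF-1α peak in another line was found at 51 private sites or 44% (35.3 to 53.1) and at 170 shared sites or 72.6% (66.6 to 78.0). All 3 other lines had HIF-1α at 20 private sites or 17.2% and at 95 shared sites or 40.6%. These shares rose with the number of other lines that held HIF-2α, and sites shared with 1 line were close to private sites. For 1, 2 and 3 lines, HIF-1α in HCT116 was found at 63.8%, 83.9% and 100%. HIF-1α in another line was found at 47.5%, 76.3% and 100%, and in all 3 other lines at 18.8%, 23.7% and 95.1%. Private HIF-2α sites were thus not all private for HIF-1α, since 51 of 116 held HIF-1α elsewhere and 9 of these held it in all 6 HIF-1α libraries of the other lines.

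**Figure D4:**
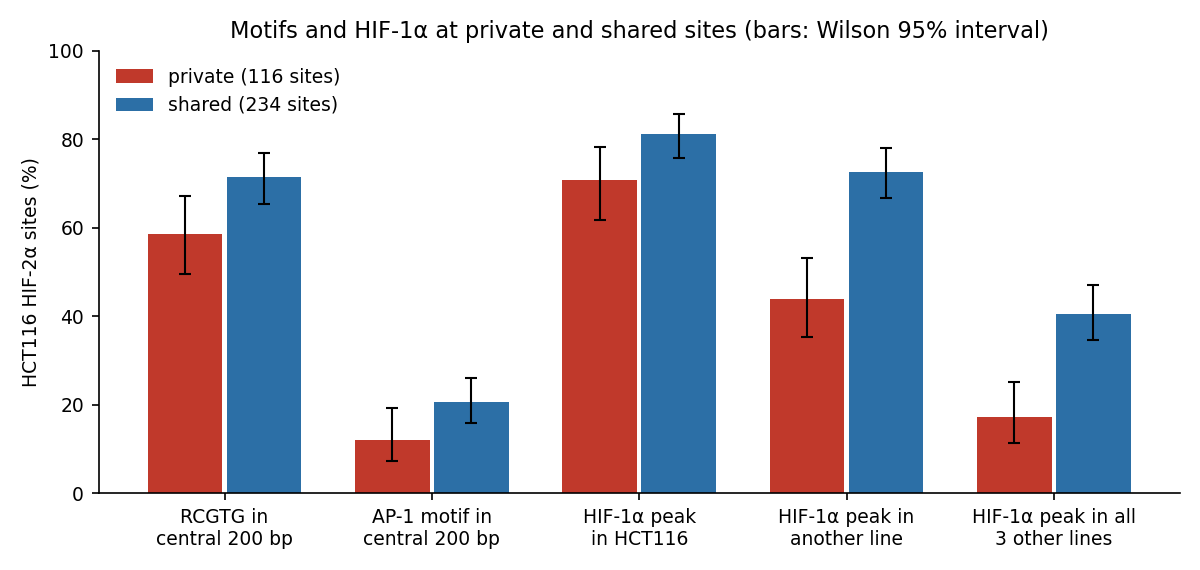
Percent of private (116) and shared (234) HCT116 HIF-2α sites (y axis) with RCGTG, with the AP-1 motif and with HIF-1α peaks (x axis). Error bars are Wilson 95% intervals, and HIF-1α in another line was found at 44% of private and 72.6% of shared sites.

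Private sites with and without HIF-1α in HCT116 were unlike each other. The 82 with HIF-1α had a median distance of 672.5 bp, with 54.9% within 1000 bp of a start site and RCGTG at 72.0%. The 34 without HIF-1α had a median distance of 30592 bp, with 5.88% within 1000 bp and RCGTG at 26.5% (Wilson 14.6 to 43.1). Flanking windows matched for CpG held it in 36.4%, inside that interval, an excess of -9.88 points. For the 82 with HIF-1α the excess was 21.4 points. Shared sites divided the same way in distance and core. The 190 with HIF-1α had a median distance of 2624 bp, with 41.6% within 1000 bp and RCGTG at 78.9%, an excess of 30.2 points. The 44 without had a median of 34236 bp, with 6.82% within 1000 bp and RCGTG at 38.6% (Wilson 25.7 to 53.4). Matched flanks held it in 31.5%, also inside the interval, an excess of 7.13 points. Of the 34 private sites without HIF-1α in HCT116, 32 had no HIF-1α peak in any library, and of the 82 with it, 33 had none in another line.

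Of the 47 private sites within 1000 bp of a start site, 95.7% had HIF-1α in HCT116 and 72.3% had it in another line. Of the 69 beyond, 53.6% had HIF-1α in HCT116 and 24.6% in another line, compared with 73.0% and 61.8% of the 152 shared sites beyond 1000 bp. RCGTG was present in 52.2% of private and 69.7% of shared sites beyond 1000 bp. Counts of 82 and 34 sites come from the same 2 HIF-2α libraries. The mean rank was 63.2 for these 82 and 63.1 for these 34 private sites. For shared sites with and without HIF-1α in HCT116 it was 81.4 and 70.6. Sites of low score are more frequent among private sites, and the part of score in these shares was not tested.

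The best-ranked private site lay in an intron of SYTL3, which encodes a synaptotagmin-like effector of RAB27 in vesicle traffic, at chr6:159151199-159152221. Its scores were 593.9 in replicate 2 and 511.8 in replicate 3, its rank was 99.4 and its order 8 of 350, and no library of either antibody outside the HCT116 HIF-2α pair had a peak there. A second private site in the same intron region, at chr6:159141256-159142464, had scores of 104.2 and 79.5 and likewise no HIF-1α peak. This was the only pair of private sites within 100000 bp of each other.

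SLC2A1, which encodes the glucose transporter GLUT1, had a private site at chr1:43472829-43474940, 49345 bp upstream of its start site between genes. Its scores were 504.8 and 350.9 and its order was 19, and both HCT116 HIF-1α libraries but none of the other lines had a peak there. The gene also had 2 shared sites of lower rank. That 478 bp downstream of the start site, at rank 83.1, was shared with PC3 replicate 2 and had HIF-1α in all 8 libraries, and that 2080 bp downstream, at rank 25.9, was shared with A549 and PC3. In HCT116 the highest HIF-2α score of the locus was thus at the distal private site.

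The private site nearest to DNAJB12, which encodes a chaperone of the endoplasmic reticulum membrane, lay at chr10:74081587-74082819, with scores of 517.7 and 275.2 and HIF-1α in both HCT116 libraries only. Its second nearest gene, 48525 bp away, was DDIT4, a hypoxia-induced inhibitor of mTORC1. A shared site with the same nearest gene began at position 74078941, held HIF-2α in both A549 libraries and ranked 86.0. Here the private site outranked its shared neighbour, as at SLC2A1.

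CCND1, which encodes cyclin D1, had a private site 4450 bp upstream at chr11:69451047-69451901, with scores of 183.7 and 143.7 and order 82. It held no HIF-1α in HCT116, and 1 HIF-1α library of another line had a peak. A shared site of the gene lay 143754 bp upstream with order 60, and the only HIF-2α library of another line there was PC3 replicate 2. ROR2, a receptor tyrosine kinase for WNT5A, held its private site in an intron 152765 bp from the start site, with scores of 148.8 and 168.8 and HIF-1α in both HCT116 libraries. CXCR4, the receptor of the chemokine CXCL12, was nearest to a private site 127166 bp upstream, with scores of 180.8 and 107.2 and HIF-1α in both HCT116 libraries and in 1 library of another line.

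Other well-ranked private sites were at carboxylesterase CES3 (order 30, within an exon, 3729 bp downstream of the start site) and within APBB2, an adaptor of the amyloid precursor protein (order 57). The latter was nearest to the start site of the unnamed gene ENSG00000289761, and neither had HIF-1α in any library. HDHD5 carried a private site over its start site (order 84) with HIF-1α in both HCT116 libraries and 5 of 6 others. LRMDA, named for melanocyte differentiation, carried an intronic site with 4 cores and 1 AP-1 motif (order 87). The melanocortin receptor gene MC1R (order 116, 581 bp upstream) and INSIG1, a regulator of sterol synthesis (order 119, 88554 bp upstream), completed the 12 best-ranked private sites. Of these 12 sites, 2 lay within 1000 bp of a start site.

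All 9 private sites with HIF-1α in all 8 libraries lay near start sites, at 39 to 693 bp. The best-ranked of them, at DENND1A, an exchange factor for RAB35, at ZNF653, a zinc finger gene, and at WDR45B, an autophagy gene, lay 147, 297 and 60 bp from start sites. Their scores were moderate, from 106.7 and 105.3 at DENND1A to 82.9 and 78.5 at WDR45B, and their orders were 141, 164 and 204. At these promoters HIF-1α was listed in every line and HIF-2α in HCT116 alone.

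The 8 best-ranked shared sites had 7 nearest genes. The ENO1 site and 1 BHLHE40 site lay 123 and 482 bp from the start site, and the others 7595 to 105903 bp away. The ZNF395 site was in an intron of FBXO16. ENO1, the glycolytic enolase, ranked first with scores of 1463 and 925.0, followed by sites near UBR4, a ubiquitin ligase, SLC45A1, a sugar transporter, MEGF6, and BHLHE40, a transcriptional repressor induced in hypoxia, which had 2 of the 8 best. SNAPC1, which lies beside HIF1A, and ZNF395 completed them. The ENO1, BHLHE40, SNAPC1 and ZNF395 sites were in all 6 other HIF-2α libraries, the MEGF6 site in both A549 libraries, the SLC45A1 site in 4 libraries and the UBR4 site in A549 replicate 3 alone. The UBR4 site, with scores of 884.4 and 745.4, would have been private without that library, and it had no HIF-1α in any. Most of its central 200 bp was a short repeat, and the part of this in its scores was not tested.

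Gene lists were read through the 3 protein-coding genes nearest to each site. Of 19794 genes, 4.81% were among the 3 nearest to any HCT116 HIF-2α site, 3.19% to a shared site and 1.72% to a private site. The 340 genes of private and 632 genes of shared sites had 20 in common, which is 5.88% of the first and 3.17% of the second.

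Glycolysis and the study's 48 common HIF targets were reached mainly by shared sites. Of 23 glycolytic and glucose uptake genes 20 were near a site, 19 near a shared site (82.6%) and 2 near a private site (8.70%). The private ones were SLC2A1, which also had shared sites, and the aldolase ALDOC, which was the third nearest gene at 12184 bp to a site of order 285 with no core and no HIF-1α. Of the 47 common targets found in the annotation, 37 were near a shared site and 3, SLC2A1, DDIT4 and DENND1A, near a private site, with DENND1A reached by a private site alone. The study derived that list in part from these cell lines, so its counts are not independent evidence. Of 13 oxygen sensing genes, HIF1A, EGLN1 and EGLN3, of which the latter encode prolyl hydroxylases, were near shared sites and HIF3A was near a private site 85600 bp away.

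Private sites near genes of the intestinal epithelium were few. Of 22 such genes GPA33 and MUC13, encoding a surface antigen and a membrane mucin, were near private sites at 53714 and 160233 bp, as the second and the third nearest gene, and VIL1 and ELF3 were near shared sites. The nearest gene of the GPA33 site was POU2F1, and both HCT116 and all 6 other HIF-1α libraries had a peak there. That of the MUC13 site was UMPS, and the site had no core and no HIF-1α. At 9.09% of the list for each class the share was above the 1.72% and 3.19% of all genes, on counts of 2. Of 21 Wnt genes CCND1 was near a private and a shared site and SOX9 near a shared site. For the epithelial lists of the other tissues, 1 of 12 lung genes and none of 13 breast or 10 prostate genes was near any HCT116 site, and none of the lung genes was near a private site.

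**Figure D5:**
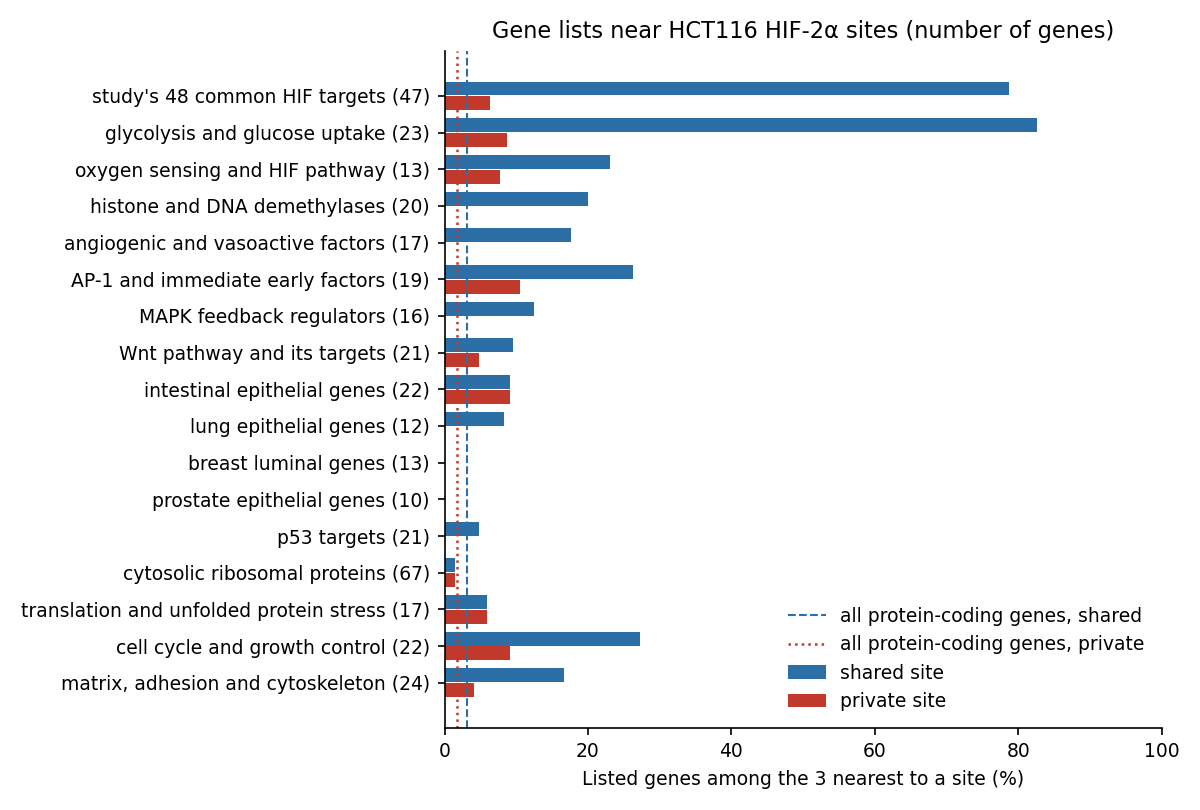
Percent of the genes of each list (x axis) that were among the 3 nearest genes of a shared or a private HCT116 HIF-2α site, with the number of annotated genes in brackets (y axis). Lines give the shares over all 19794 protein-coding genes, 3.19% for shared and 1.72% for private sites.

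Over all genes more are near a shared than near a private site, 3.19% against 1.72%, and the immediate early and growth lists followed that order. Of 19 AP-1 and immediate early factors, KLF10, FOSL2, KLF6, MAFF and JUNB were near shared sites, JUNB also near a private site, and NR4A1, a nuclear receptor induced by growth stimuli, near a private site 17 bp from its start. The NR4A1 site had scores of 53.6 and 51.0, close to the lowest score listed of 50, and HIF-1α in both HCT116 libraries only. Of 22 growth control genes 6 (27.3%) were near shared sites and 2 (9.09%), CCND1 and SMAD7, an inhibitor of TGF-β signalling, near private sites. The SMAD7 site lay in an intron 157830 bp from the start site of that gene and had HIF-1α in both HCT116 libraries. LOXL2, a matrix crosslinking enzyme, had a private site 313 bp from its start and a shared site, as the 1 private gene of 24 matrix genes against 4 shared.

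In the remaining lists the private counts were near what the 1.72% of all genes gives for lists of this size, so that they say little about the lists. None of 20 demethylases, 17 angiogenic factors, 16 MAPK feedback regulators and 21 p53 targets was near a private site, where 4, 3, 2 and 1 were near shared sites. Of 67 ribosomal protein genes RPS23 was the third nearest gene to a private site at 306205 bp, and of 17 stress genes DDIT4 was the 1 near a private site.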

How the data were processed

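ChIP-seq for HIF-1α and HIF-2α in 4 cell lines was used as 1 peak list per library. Per the submitters' processing notes and the study's methods, the authors trimmed reads with Trim Galore 0.3.3, aligned them to GRCh37 with BWA 0.7.5a-r405, removed reads of mapping quality under 15, blacklisted regions and duplicates with SAMtools 0.1.19, bedtools 2.17.0 and Picard 2.0.1, and called peaks in each library with MACS, whose version is not given in the sources used here, in control mode. Each peak of the deposited lists carries a score that the caller gave it, which starts at 50 to 50.05 in the HIF-2α lists, and was used only for ranks and filters. The study also called peaks with T-PIC and kept those found by both callers, in both replicates and with HIF-1β. These filters were not applied to the lists used here. Of them, only the rule of both replicates was applied here, to form sites from the lists. Read depth is unknown. The labels gave the groups.

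The 7015 HIF-2α peaks were used but for 11 off chromosomes 1 to 22, X and Y. Distances ran from the centre to the closest of all protein-coding transcript starts in GENCODE release 44 mapped to GRCh37, which is also the source of gene names and exons. Motifs were counted in the central 200 bp of the GRCh37 sequence, and promoters were windows of the same size around start sites of that annotation. Sites were named by the nearest protein-coding gene. The 12 best-ranked private and 8 best-ranked shared sites were named, with the 3 best-ranked private sites without HIF-1α, the 3 with most HIF-1α, and up to 4 genes of each list near private sites. Sequences were taken from those sites outside exons, the shared sequence was added after values were seen, and not all of them are reported here. The members and lists were chosen with earlier results of these data known.

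Comparisons over libraries used 5 two-sided exact permutation tests, adjusted by Benjamini-Hochberg at 0.05, and sites were described with quartiles and Wilson 95% intervals and not tested. Scripts ran on Python 3.11.15, numpy 2.4.6, scipy 1.17.1, pysam 0.24.0 and statsmodels 0.14.6 and were tested on simulated data. Alternatives changed score and length of lists, overlap and replicate rules, start sites, motif window, libraries, lines and score range, and used replicate numbers as a block.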

Additional observations from a re-analysis of the deposited data

How the results depend on the processing

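Of 156 alternative values 16 reversed, 22 without a test moved beyond the spread between libraries or, for counts, over 1.5 times, and no test passed or lost the threshold after adjustment. The values of the tests could still move in size. The distance of HIF-2α peaks was lower in HCT116 under all 18 alternatives tried for it, from -0.27 with the start sites of all genes to -0.66 with lists of equal length. The private share difference was 0.9985 points without PC3 and 9.81 without T47D, the distance gap -1.04 with lists of equal length and -0.06 without T47D, the rank gap -11.1 at higher scores and -4.40 with lists of equal length, and the library RCGTG difference -8.23 without T47D. Peaks with a score of at least 69.59, the median, gave 58 private sites, a site distance difference of -0.18 and a private share difference of -3.90 points. Lists cut to their 272 best peaks gave 70 private sites, -0.42, -5.64 points, a site RCGTG difference of -17.9 points and a library RCGTG difference of 1.65. Peaks of either replicate gave 1404 private sites, 0.28, a rank difference of -27.8 and RCGTG of -26.6 points. Counting as shared only sites in both replicates of a line gave 182 private sites and RCGTG of -18.5. The site distance difference was -0.0643 with 1 start site per gene, 0.31 with those of all genes, 0.14 above and -0.20 below the median rank, 0.23 without PC3 and -0.33 without T47D. Above the median rank the site RCGTG difference was -6.46. Without A549 the site rank difference was -14.1 and the library RCGTG difference 3.75, and windows of 400 bp gave 3.79.

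With each library left out in turn, private sites ranged from 117 to 893, the site distance difference from -0.19 to 0.30, the site rank difference from -32.2 to -14.8, the site RCGTG difference from -30.3 to -12.3 and the library RCGTG difference from -5.40 to 3.08. The site distance difference was 0.30 without HCT116 replicate 2, 0.24 without HCT116 replicate 3 and 0.20 without PC3 replicate 2, and the library RCGTG difference was positive without A549 replicate 2 (1.47), A549 replicate 3 (2.21), HCT116 replicate 3 (3.08) or PC3 replicate 2 (2.15). Sites without 1 HCT116 library are all peaks of the other, which gives 627 and 893 private peaks. The cause of the other shifts was not tested.

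The labels do not say that a replicate number marks a shared culture or day. With the number as a block, which leaves 8 relabellings and a smallest p of 0.125, the differences were -0.31 for distance (exact permutation p = 0.125), 9.09 points for private share (0.25), -0.13 for the distance gap (0.875), -10.8 for the rank gap (0.125) and -10.9 points for RCGTG (0.5).

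Depth is unknown and lists differ in length, so absence of a peak in another line is absence from a list. The smallest p of the exact permutation test over 8 libraries was 0.0357, and over 4 lines it would be 1 in 4.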

Other observations

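Some genes of known pathways were among the nearest genes of private HCT116 HIF-2α sites. They were picked after their values were seen and from no fixed list, so no share of a pathway can be set beside the 1.72% of all genes near a private site, and they are given as single genes. SCAP, the escort of the sterol regulator SREBP, had a private site 62 bp from its start, with scores of 60.8 and 90.4. SREBF1, which encodes SREBP-1, had a private site 341 bp from its start, with scores of 86.8 and 50.1, the second close to the lowest listed score of 50. Both sites had HIF-1α in both HCT116 libraries and in 1 library of the other lines. PTCH1, the receptor of Hedgehog ligands, had a private site 1764 bp upstream, and SHH, a ligand, was nearest to a site 149570 bp upstream. SOS1, an activator of RAS, had a private site 39 bp from its start, with scores of 116.4 and 51.4 and HIF-1α in all 6 libraries of the other lines. The second SOS1 score was likewise close to the lowest listed score.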
